A study of Mus musculus with 24 samples.

Results

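Keratins are the intermediate filament proteins of epithelial cells. Their genes were taken as the probe sets whose platform symbol is Krt followed by a number and, at most, 1 letter, with the highest-mean probe set per gene. This gave 49 keratin genes of the 19505 genes measured. Each gene was covered by a single probe set, and 27 of them lie on chromosome 11 and 22 on chromosome 15. The current mouse annotation lists 54 keratin symbols of this form, and the other 5 (Krt6a, Krt6b, Krt81, Krt83 and Krt87) were not analysed here.

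A keratin filament is built from heterodimers of a type I and a type II keratin, and epithelia differ in the pairs they make. Simple epithelia, among them the ducts of the pancreas, use Krt8 with Krt18 and, in ducts, also Krt7 and Krt19, and these are standard markers of ductal adenocarcinoma. Stratified epithelia use Krt5 with Krt14 in the basal layer and Krt1 with Krt10 above it, and the hair follicle adds the root sheath keratins and the hair keratins of the shaft.

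RNA from 24 mouse tumours was hybridised to Clariom S arrays, which read many probes along each transcript. By its title the series concerns pancreatic ductal adenocarcinoma and joint blockade of IGF1R/IR and autophagy. The tumours fall into 4 groups of 6: the combination of BMS754807 and hydroxychloroquine, BMS754807 alone, hydroxychloroquine alone, and a control treated with vector. BMS754807 is an inhibitor of the IGF1 and insulin receptor kinases, and hydroxychloroquine raises lysosomal pH and blocks autophagy. The labels used here give no dose, duration, strain, age, cell line or tumour site, and do not say that the 6 tumours of a group came from separate animals. The p-values therefore measure the spread between these samples, which may be technical in part. Values are log2 signal as deposited, a scale inferred from the values. A level of one keratin cannot be set against that of another, because probes differ in brightness. In a bulk tumour, fewer cells of a type and less RNA per cell cannot be told apart.

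Promoter sequences are shown for 6 keratins that the results turn on. Krt8 and Krt18 are neighbours on chromosome 15 whose values, as deposited, moved together over the tumours. That result depended on the scale between arrays, as given below. Krt7 followed another epithelial gene, and Krt5, Krt10 and Krt77 stood highest in the same tumour. Each sequence, from RefSeq (GRCm38.p6), runs 5′ to 3′ from 250 bases before to 30 bases after the annotated start. Capitals mark matches on either strand to the TATA box (TATAAA), the AP-1 motif (TGANTCA) or the GC box (GGGCGG).
The Krt8 promoter is at chr15:102004313-102004592 on the minus strand.
Krt8: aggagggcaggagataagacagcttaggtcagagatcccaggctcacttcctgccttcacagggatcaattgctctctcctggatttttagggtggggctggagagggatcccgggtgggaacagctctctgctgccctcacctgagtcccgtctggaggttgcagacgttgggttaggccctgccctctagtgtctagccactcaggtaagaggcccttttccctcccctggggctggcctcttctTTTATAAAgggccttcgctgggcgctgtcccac
The Krt18 promoter is at chr15:102027966-102028245 on the plus strand.
Krt18: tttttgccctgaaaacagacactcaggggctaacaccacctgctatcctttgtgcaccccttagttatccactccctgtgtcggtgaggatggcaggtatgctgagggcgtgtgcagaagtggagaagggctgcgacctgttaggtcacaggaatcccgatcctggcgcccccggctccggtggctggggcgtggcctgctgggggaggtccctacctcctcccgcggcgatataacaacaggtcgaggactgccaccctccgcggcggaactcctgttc
The Krt7 promoter is at chr15:101412153-101412432 on the plus strand.
Krt7: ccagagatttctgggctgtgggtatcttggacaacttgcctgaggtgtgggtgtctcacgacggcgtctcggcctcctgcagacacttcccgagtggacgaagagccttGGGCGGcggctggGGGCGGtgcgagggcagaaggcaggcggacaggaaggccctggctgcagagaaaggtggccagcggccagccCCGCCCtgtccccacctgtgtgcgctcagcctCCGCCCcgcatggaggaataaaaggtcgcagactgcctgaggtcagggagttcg
The Krt5 promoter is at chr15:101712876-101713155 on the minus strand.
Krt5: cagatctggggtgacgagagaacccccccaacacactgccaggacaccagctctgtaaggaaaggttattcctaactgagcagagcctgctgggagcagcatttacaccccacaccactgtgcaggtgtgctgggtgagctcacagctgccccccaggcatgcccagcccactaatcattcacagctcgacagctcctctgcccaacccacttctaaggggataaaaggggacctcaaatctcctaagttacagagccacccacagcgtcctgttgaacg
The Krt77 promoter is at chr15:101869676-101869955 on the minus strand.
Krt77: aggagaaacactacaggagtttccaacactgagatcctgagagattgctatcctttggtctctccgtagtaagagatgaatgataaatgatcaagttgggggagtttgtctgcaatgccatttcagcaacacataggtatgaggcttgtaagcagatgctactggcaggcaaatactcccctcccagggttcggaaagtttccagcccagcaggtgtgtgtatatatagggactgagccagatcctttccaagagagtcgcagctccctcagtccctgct
The Krt10 promoter is at chr11:99389335-99389614 on the minus strand.
Krt10: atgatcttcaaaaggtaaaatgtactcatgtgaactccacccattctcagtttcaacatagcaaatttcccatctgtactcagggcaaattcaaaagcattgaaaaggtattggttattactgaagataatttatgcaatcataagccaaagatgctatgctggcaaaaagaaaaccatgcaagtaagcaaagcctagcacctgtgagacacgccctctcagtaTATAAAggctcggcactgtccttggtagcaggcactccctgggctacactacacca
The Krt8 window holds overlapping TATAAA matches on both strands across the annotated start, the Krt10 window holds 1 shortly before it, and the Krt7 window holds 4 GC boxes. The Krt18, Krt5 and Krt77 windows hold none of the 3 motifs. Of the 49 keratins, 36 matched the table, with 37 promoters. TATAAA was in 19 of these (51.4%), against 13.1% of 32851 mouse promoters. GGGCGG was in 2 (5.41%), against 34.7%, and TGANTCA in 2 (5.41%), both of Krt13, against 7.46%. These are letter matches and not sites. Neighbouring keratin genes are related copies, so their promoters are not independent.

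The 4 simple keratins were bright in every tumour, between 15.15 and 17.18 log2, and varied little. Their ranges over the 24 tumours were 0.83 for Krt7, 0.68 for Krt8, 0.62 for Krt18 and 0.79 for Krt19. The median range of all genes was 1.33. Narrow ranges were common at this brightness: among the 455 genes whose mean lay above 15 log2, the median range was 0.59, and 87.7% had a range under 1. Among those 455 genes, the SD of Krt18 stood at the 46.6th percentile, Krt8 at the 64.0th, Krt19 at the 74.9th and Krt7 at the 76.7th.

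Most of the other keratins were dim. The highest value over all tumours was under 5 log2 for 32 of 49 keratins (65.3%), against 29.3% of all genes. For scale, 1091 olfactory receptor genes, which are mostly silent outside the nose, had a median level of 3.03 and a 95th percentile of 4.32. The mean of 32 of 49 keratins lay under that percentile. The table carries no detection calls, so a dim keratin is not shown to be absent. The 12 measured hair shaft keratins had a median range of 1.35 (0.77 to 2.26), and the 9 inner root sheath and companion layer keratins had 1.3 (0.90 to 1.96). The 5 mucosal and corneal keratins had 1.27 (0.87 to 1.83). The basal and stress-induced keratins had 1.62 over 5 measured of 7 (1.09 to 4.54), and the 8 suprabasal epidermal keratins had 1.745 (0.96 to 4.54).

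Over 3 log2 of range was reached by 5 of 49 keratins (10.2%), against 4.96% of all genes: Krt20, Krt14, Krt10, Krt79 and Krt77. A range under 1 log2 was found in 11 of 49 (22.4%), against 26.5% of all genes. The heat map of deviations shows these few wide rows between many pale ones.

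**Figure D1:**
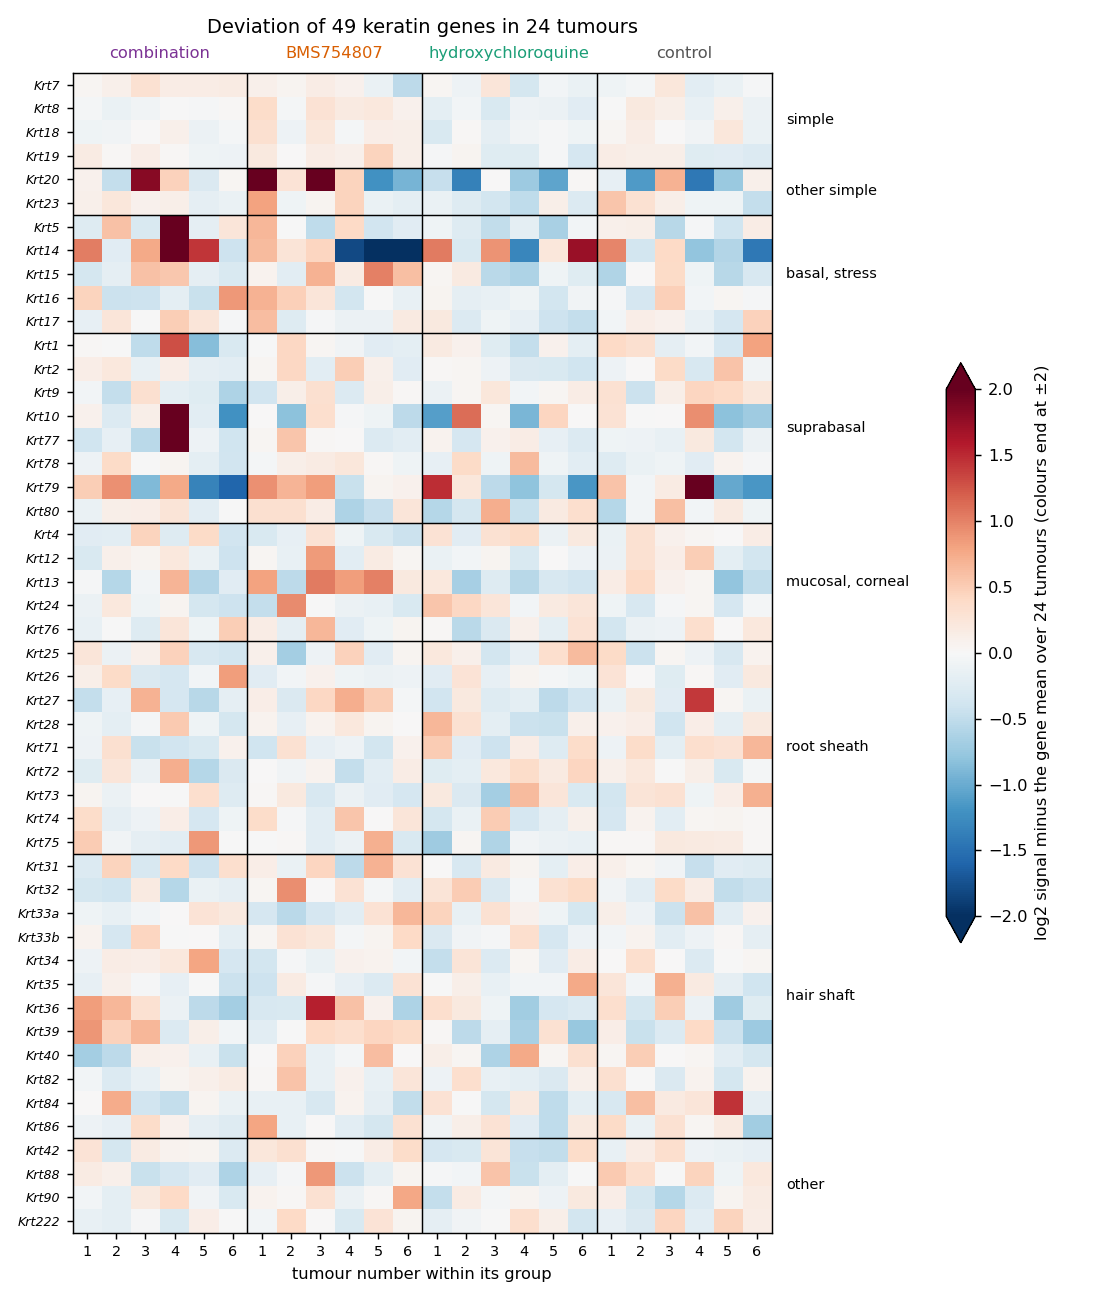
Deviation of each of the 49 keratins (rows, grouped by class) from its own mean over 24 tumours, in log2 signal, for the 6 tumours of each group (columns, numbered within the group); colours end at ±2. Dark cells are few and sit in Krt20, Krt14, Krt10, Krt77, Krt79 and Krt5, and combination tumour 4 holds the dark cells of Krt5, Krt10 and Krt77.

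In 6 comparisons, the 3 treated groups against control, the combination against each single agent, and the interaction, no keratin differed at an adjusted p under 0.05 (limma, Benjamini-Hochberg over 19505 genes), and neither did any other gene: the share called was 0% in each. BMS754807 against hydroxychloroquine, added after the values were seen, is given after them. The smallest adjusted p of a keratin was 0.944 for the combination against control, 0.824 for BMS754807 against control, 0.979 for hydroxychloroquine against control, 0.452 for the combination against BMS754807, 0.902 for the combination against hydroxychloroquine and 0.951 for the interaction. Groups did not overlap for 0 of 49 keratins in each of the 5 pairwise comparisons among these. The share of all genes whose groups did not overlap was 0.308%, 0.174% and 0.154% for the combination, BMS754807 and hydroxychloroquine against control, 0.651% for the combination against BMS754807 and 0.267% for the combination against hydroxychloroquine. Each treated group is set against the same 6 controls. What follows gives differences with their SE, as values. The olfactory receptor genes had a 95th percentile of 4.32 log2. Of the members named below, Krt4, Krt5, Krt9, Krt15, Krt17, Krt24, Krt32, Krt34, Krt71, Krt75, Krt77, Krt78 and Krt84 had medians under it. So did Krt1, Krt36, Krt72, Krt76 and Krt86. The part of background signal in the differences of such dim genes was not tested.

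Krt7, the type II keratin of ducts and glands, had its tightest group in the combination. Its lowest, median and highest values were 16.91, 17.01 and 17.18 in combination tumours. They were 16.35, 16.94 and 17.02 in BMS754807 tumours, 16.51, 16.79 and 17.11 in hydroxychloroquine tumours, and 16.65, 16.805 and 17.09 in control tumours. All 6 combination tumours lay above the control mean, and the groups overlapped. The combination averaged 17.02 ± 0.090 and the control 16.82 ± 0.15 (SD, n = 6 each), a difference of 0.20 ± 0.12 (SE; 95% interval -0.042 to 0.44; unadjusted p = 0.102, limma adjusted p = 0.944). Fitted with the mean of 17 other epithelial genes as covariate, that difference was 0.079. The difference from control was 0.0033 ± 0.12 in BMS754807 tumours and -0.015 ± 0.12 in hydroxychloroquine tumours. The combination lay above BMS754807 by 0.195 ± 0.12 (0.10 without BMS754807 tumour 6) and above hydroxychloroquine by 0.21 ± 0.12.

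Krt8, the type II keratin of all simple epithelia, was lowest in hydroxychloroquine tumours. Its lowest, median and highest values were 16.15, 16.25 and 16.31 in combination tumours and 16.25, 16.48 and 16.65 in BMS754807 tumours. They were 15.97, 16.13 and 16.23 in hydroxychloroquine tumours and 16.13, 16.33 and 16.48 in control tumours. The 6 hydroxychloroquine tumours all lay below the control mean, and their upper values overlapped the lower control values. Their mean was 16.12 ± 0.096 (16.31 ± 0.14 in control), a difference of -0.19 ± 0.088 (95% interval -0.37 to -0.0096; unadjusted p = 0.0400, limma adjusted p = 0.979). The combination lay below BMS754807 in all 6 tumours against the BMS754807 mean, by -0.225 ± 0.088 (unadjusted p = 0.0176, limma adjusted p = 0.494). BMS754807 alone differed from control by 0.16 ± 0.088, and the combination by -0.067 ± 0.088. The lowest BMS754807 tumour lay above the highest hydroxychloroquine tumour.

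Krt18, the type I partner of Krt8, followed the same order of group means. Its lowest, median and highest values were 16.06, 16.125 and 16.28 in combination tumours, 16.07, 16.305 and 16.49 in BMS754807 tumours, 15.87, 16.095 and 16.20 in hydroxychloroquine tumours, and 16.04, 16.20 and 16.40 in control tumours. All groups overlapped. The differences from control were -0.067 ± 0.093 in combination tumours, 0.073 ± 0.093 in BMS754807 tumours and -0.14 ± 0.093 in hydroxychloroquine tumours, with adjusted p between 0.979 and 0.986 (limma). The combination lay below BMS754807 by -0.14 ± 0.093.

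Krt19, a small type I keratin of ducts, was highest in BMS754807 tumours. Its lowest, median and highest values were 15.39, 15.515 and 15.66 in combination tumours, 15.50, 15.62 and 15.94 in BMS754807 tumours, 15.15, 15.35 and 15.54 in hydroxychloroquine tumours, and 15.22, 15.43 and 15.64 in control tumours. The control tumours fell into a lower and an upper trio, of which the upper lay inside the BMS754807 range. BMS754807 tumours averaged 15.66 ± 0.15 and control tumours 15.43 ± 0.21 (SD, n = 6 each), a difference of 0.23 ± 0.11 (unadjusted p = 0.0408, limma adjusted p = 0.842), with 6 of 6 above the control mean. The combination differed from control by 0.088 ± 0.11, and hydroxychloroquine by -0.082 ± 0.11.

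**Figure D2:**
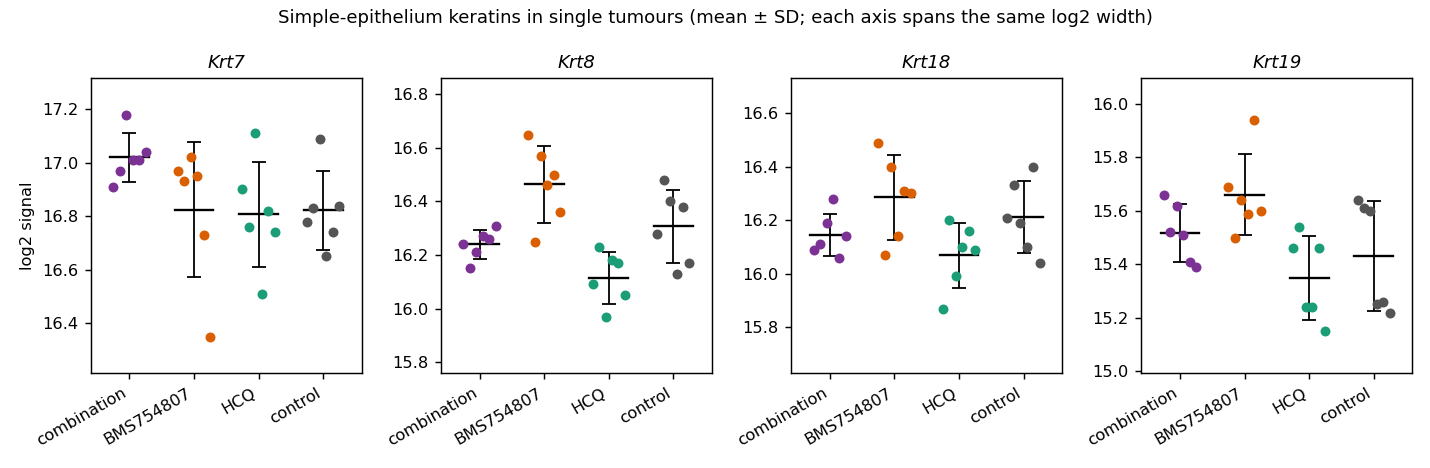
Log2 signal of Krt7, Krt8, Krt18 and Krt19 in single tumours of the combination, BMS754807, hydroxychloroquine (HCQ) and control groups, 6 tumours each; horizontal bars are group means and whiskers the SD, and each panel spans the same log2 width. In the Krt8 panel the BMS754807 points (16.25 to 16.65) all lie above the HCQ points (15.97 to 16.23), and the other pairs of groups overlap in each panel; the lowest Krt7 point is a BMS754807 tumour at 16.35.

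The mean deviation of the 4 simple keratins summarises them in single tumours, with no test. It ran from -0.019 to 0.096 in combination tumours (median 0.018), from -0.052 to 0.25 in BMS754807 tumours (median 0.12), from -0.20 to -0.022 in hydroxychloroquine tumours (median -0.125) and from -0.17 to 0.12 in control tumours (median 0.0070). In every hydroxychloroquine tumour the mean of the simple keratins lay under their mean over all tumours. The 17 epithelial genes that are no keratins ran over a wider span, from -0.38 to 0.72 in combination tumours, -1.02 to 0.85 in BMS754807 tumours, -0.69 to 0.90 in hydroxychloroquine tumours and -0.78 to 0.37 in control tumours.

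Krt8 and Krt18 moved together from tumour to tumour. After group means were removed, Pearson r was 0.738 and Spearman rho 0.711 over 24 tumours (permutation within groups, p = 5.2e-04 and adjusted p = 0.0039 over 15 pairs for r). Without the 2 tumours farthest from the median of Krt8 (BMS754807 tumour 2 and control tumour 4), r was 0.665 (adjusted p = 0.027). After quantile normalization it was 0.565, with an adjusted permutation p of 0.0794, so the call depends on the scale between arrays. Within groups, r was 0.173 in combination tumours, 0.851 in BMS754807 tumours, 0.64 in hydroxychloroquine tumours and 0.81 in control tumours, over 6 tumours each. Krt8 and Krt19 had r = 0.485 (adjusted permutation p = 0.208), and Krt7 and Krt19 had r = 0.122.

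Krt7 followed Epcam, an adhesion molecule of epithelial cells. Pearson r was 0.788 and Spearman rho 0.794 over 24 tumours, with a permutation p of 1e-05, the smallest that 100000 resamples can give, and an adjusted p of 1.5e-04. It was 0.705 without BMS754807 tumour 6 and hydroxychloroquine tumour 3, and 0.761 after quantile normalization, both with adjusted permutation p under the threshold of 0.05. Within groups, r was 0.786 in combination tumours, 0.918 in BMS754807 tumours, 0.794 in hydroxychloroquine tumours and 0.579 in control tumours. The other simple keratins had r of 0.123 (Krt8), -0.039 (Krt18) and -0.003 (Krt19) with Epcam, and none of these passed the adjusted threshold. Within groups each of these had both signs, from -0.726 (Krt8, hydroxychloroquine tumours) to 0.578 (Krt18, combination tumours). Whether Krt7 differs from the other simple keratins in this was not tested. Epcam itself ran from 10.68 to 14.92 log2, while Krt7 ranged over 0.83.

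**Figure D3:**
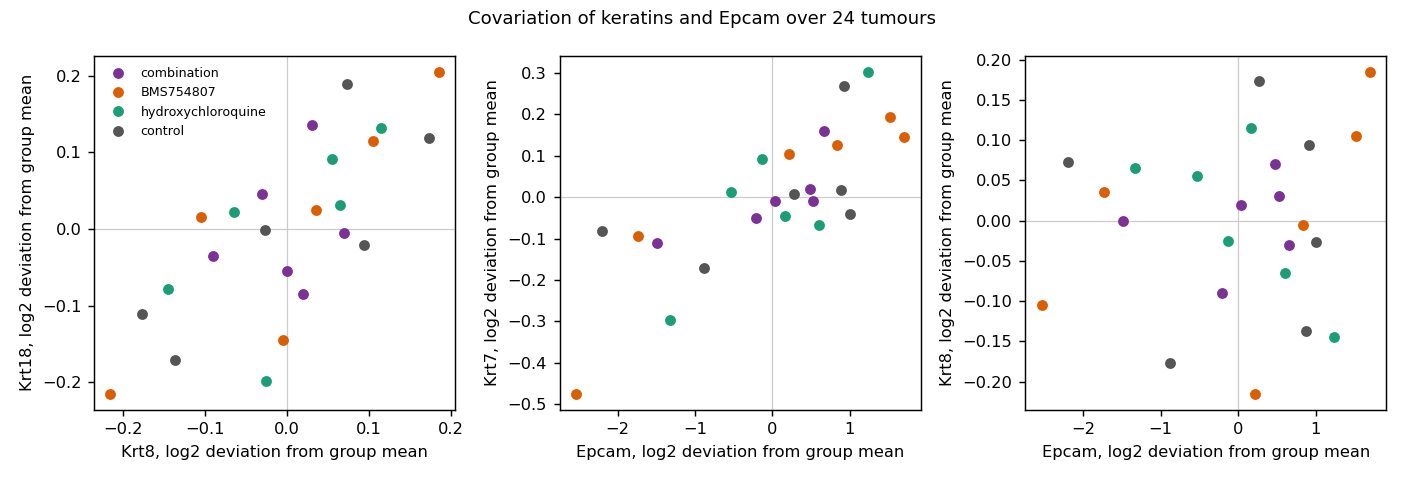
Deviations from the group mean, in log2 signal, of Krt18 against Krt8, of Krt7 against Epcam and of Krt8 against Epcam, 1 point per tumour (24), coloured by group. The first and second panels rise to the right (r = 0.738 and 0.788), and the third shows no such slope over all tumours (r = 0.123).

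The 10 genes most like the simple keratins as a class, by r of deviations from group means over 24 tumours, were Mapt (0.824), Cystm1 (0.774), Rac3 (0.761), Ctnnd1 (0.749), Msln (0.749), Cant1 (0.747), Manba (0.738), Plb1 (0.729), Tmem126a (0.723) and Hgfac (0.721). Ctnnd1 encodes p120 catenin of the adherens junction, and Msln encodes mesothelin, a surface protein of many pancreatic tumours. The genes are the highest of all non-keratin genes by this measure, and no p is attached. For Krt7 alone, a list chosen after its values were seen, the highest were Yes1 (0.900), Epb41l5 (0.874), Galnt7 (0.869), Galnt3 (0.866) and Muc1 (0.856), the last a transmembrane mucin of ducts.

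Krt20, a type I keratin of gastrointestinal surface epithelium, had the widest range of the family at 4.95 log2. It was 7.74, 7.18, 9.48, 8.12, 7.37 and 7.70 in combination tumours 1 to 6. It was 11.17, 7.93, 10.15, 8.10, 6.44 and 6.73 in BMS754807 tumours, and 7.19, 6.31, 7.67, 6.93, 6.61 and 7.68 in hydroxychloroquine tumours, against 7.49, 6.53, 8.35, 6.22, 6.92 and 7.76 in control tumours. BMS754807 tumours 1 and 3 stood above all others, combination tumour 3 came next, and the other BMS754807 tumours lay among the control values. The group mean was 8.42 ± 1.88 in BMS754807 tumours and 7.21 ± 0.80 in control tumours (SD, n = 6 each), a difference of 1.21 ± 0.61 (unadjusted p = 0.0591, limma adjusted p = 0.869). Without BMS754807 tumour 1 the difference was 0.66. The combination differed from control by 0.72 ± 0.61, by 0.41 without combination tumour 3, and by -0.027 when the epithelial mean was a covariate. The same covariate left 1.01 of the BMS754807 difference.

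In the 3 tumours of highest Krt20 the mean deviation of the 17 epithelial genes was 0.85 (BMS754807 tumour 1), 0.68 (BMS754807 tumour 3) and 0.72 (combination tumour 3). The highest mean, 0.90, was in hydroxychloroquine tumour 3, where Krt20 was 7.67. Epcam was 14.92 and 14.74 in BMS754807 tumours 1 and 3, and 11.48 and 10.68 in tumours 5 and 6 of that group, where Krt20 was low. It was also 14.58 and 14.54 in combination tumours 4 and 6 and 14.89 in hydroxychloroquine tumour 3, with Krt20 at 8.12, 7.70 and 7.67. Tff1, a trefoil peptide of gastric-type epithelium looked at after the data were seen, was 11.33 and 11.20 in BMS754807 tumours 1 and 3 and between 3.27 and 8.81 in the other 22. The genes most like Krt20 over the 24 tumours, also listed after its values were seen, were Slc4a11 (r = 0.854), Serpinb5 (0.843), Tmem150b (0.837), Dtnb (0.836) and Lama3 (0.818). The part of epithelial content in the Krt20 values was not tested beyond the covariate.

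Krt23, the other simple-epithelium keratin of this pair, had a range of 1.3 log2, and its highest value, 12.54, was also in BMS754807 tumour 1. Its difference from control was -0.018 ± 0.17 in combination tumours, 0.097 ± 0.17 in BMS754807 tumours and -0.29 ± 0.17 in hydroxychloroquine tumours. BMS754807 tumour 1 was the highest tumour for 6 of 49 keratins, Krt8, Krt17, Krt18, Krt20, Krt23 and Krt86 (12.2%; 3.76% of all genes). BMS754807 tumour 3 was highest for 5, Krt12, Krt13, Krt36, Krt76 and Krt88 (10.2%; 3.7% of all genes).

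Krt14, the type I keratin of basal cells, ranged over 4.54 log2. Its values were 8.43, 7.18, 8.17, 9.54, 8.83 and 7.0 in combination tumours 1 to 6. They were 8.04, 7.66, 7.83, 5.61, 5.13 and 5.00 in BMS754807 tumours and 8.45, 7.10, 8.30, 6.10, 7.63 and 9.14 in hydroxychloroquine tumours, against 8.38, 7.04, 7.81, 6.62, 6.82 and 5.97 in control tumours. BMS754807 tumours split into 3 between 7.66 and 8.04 and 3 between 5.00 and 5.61, and only this lower trio lay below every combination tumour. The combination averaged 8.19 ± 0.97, BMS754807 6.55 ± 1.44, and control 7.11 ± 0.86 (SD, n = 6 each). The combination lay above BMS754807 by 1.65 ± 0.60 (6 of 6 above the BMS754807 mean; unadjusted p = 0.0110, limma adjusted p = 0.452). It lay above control by 1.09 ± 0.60 (unadjusted p = 0.0815, limma adjusted p = 0.944), or by 0.54 with the epithelial covariate.

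Krt5, the type II partner of Krt14 in basal cells, was dim, with medians of 2.49 in combination tumours, 2.35 in BMS754807 tumours, 2.24 in hydroxychloroquine tumours and 2.495 in control tumours. It reached 4.75 in combination tumour 4, and the next highest of the 24 was 3.13. The combination lay above hydroxychloroquine by 0.685 ± 0.31 (unadjusted p = 0.0397, limma adjusted p = 0.902), and by 0.31 without combination tumour 4. Krt5 and Krt14 had r = 0.218 over 24 tumours, and 0.021 without combination tumours 3 and 4. Trp63, the transcription factor of basal cells, had r = -0.362 with Krt14. None of these correlations passed the adjusted threshold.

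The 10 genes most like the basal and stress-induced keratins as a class were Rala (r = 0.775), Bspry (0.756), Mrps9 (0.721), Gpa33 (0.716), Kif3b (0.707), Cab39 (0.705), Prrc2c (0.705), Cldn3 (0.702), Rab11fip4 (0.701) and Mbtd1 (0.686). Gpa33 is an antigen of intestinal epithelium and Cldn3 a tight junction claudin of simple epithelia. Krt14 varied most in this class, with an SD of 1.22 over the 24 tumours. The other measured members had SDs from 0.28 (Krt17) to 0.60 (Krt5), so the class mean follows Krt14 most. For Krt14 alone, listed after its values were seen, Bspry (0.801) again came first, and Cldn3 (0.707) and Foxa1 (0.704), a transcription factor of endoderm-derived epithelia, were among the first 10. Krt15, a basal keratin of stem cell zones, was dim. It averaged 3.27 ± 0.45 in BMS754807 tumours and 2.69 ± 0.37 in control tumours, a difference of 0.58 ± 0.22 (unadjusted p = 0.0146, limma adjusted p = 0.824).

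Krt10, the type I keratin of cells that have left the basal layer, had 1 tumour apart. Its values were 5.58, 5.23, 5.61, 8.82, 5.28 and 4.28 in combination tumours 1 to 6. The lowest, median and highest were 4.68, 5.445 and 5.83 in BMS754807 tumours, 4.39, 5.52 and 6.62 in hydroxychloroquine tumours, and 4.68, 5.50 and 6.42 in control tumours. Combination tumour 4 stood 2.20 above the next highest of the 24, and the other 5 of its group lay within the control range or below it. The combination differed from control by 0.355 ± 0.52, and by -0.249 without tumour 4.

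Krt77, a type II keratin of the suprabasal layers of skin, was high in the same tumour. It was 2.92, 3.16, 2.79, 5.85, 3.22 and 2.93 in combination tumours 1 to 6, between 3.05 and 3.88 in BMS754807 tumours, between 2.99 and 3.47 in hydroxychloroquine tumours and between 2.96 and 3.52 in control tumours. The difference of the combination from control was 0.26, and -0.21 without tumour 4. Krt1, the type II partner of Krt10, was also highest there, at 4.52, with the next at 4.04 in a control tumour. Krt1 and Krt10 had r = 0.544 (adjusted permutation p = 0.369), and 0.065 without combination tumours 4 and 5.

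Combination tumour 4 was the highest of all 24 for 6 of 49 keratins, Krt1, Krt5, Krt10, Krt14, Krt72 and Krt77 (12.2%), and for 2.00% of all genes. Among all 19505 genes, those farthest above the next tumour were, in order, Krt10, Krt77, Mup3 (6.17, next 4.5), Mup21 (5.31, next 3.65), Krt5, Col17a1 (5.80, next 4.19), Hrnr (4.47, next 2.95), Krtdap (4.91, next 3.65), Alb (8.21, next 6.98) and Alox12e (4.60, next 3.44). Col17a1 is a collagen of hemidesmosomes, Hrnr and Krtdap are products of differentiating epidermis, Alox12e is an epidermal lipoxygenase, and the Mup genes and Alb are secreted mainly by liver. These genes were picked for standing out and carry no test.

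The fixed lists of skin markers were read beside this tumour. The mean deviation of 19 measured epidermis and cornified envelope markers was 0.52 in combination tumour 4, and between -0.295 and 0.22 in the other 23. Of the 19, 4 were highest there (Flg2, Krtdap, Sfn and Cdsn). Lor, the main protein of the cornified envelope, was 2.8 there and between 2.46 and 3.64 in the other 23. Ivl, of the same list, was 6.72 there, and only combination tumour 5, at 6.21, was lower. Trp63, also of the list, was 5.53 there and between 3.29 and 6.26 in the other 23. The 16 hair follicle markers averaged 0.0010 in that tumour, with 1 (Foxn1) at its highest, and the 7 sebaceous markers averaged 0.15, with 0 at their highest. A pair of B cell genes, looked at after the data were seen, was high in this tumour, Cd79a at 7.98 and Ms4a1 at 8.01, and they were higher or similar in hydroxychloroquine tumour 1 (10.95 and 8.50) and BMS754807 tumour 5 (9.25 and 7.53), where Krt10 was 4.39 and 5.41. The part of skin tissue in these values was not tested.

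Krt79, a type II keratin of the hair follicle opening and sebaceous duct, varied in other tumours than Krt10 and Krt77. It was 9.95, 10.37, 8.57, 10.22, 8.13 and 7.88 in combination tumours 1 to 6, and 10.37, 10.14, 10.30, 9.02, 9.51 and 9.55 in BMS754807 tumours. It was 10.94, 9.68, 8.94, 8.66, 9.10 and 8.29 in hydroxychloroquine tumours, against 10.03, 9.40, 9.62, 11.62, 8.43 and 8.29 in control tumours. The highest tumour was a control, and each group spread over more than 1 log2. The differences from control were -0.38 ± 0.53 in combination tumours, 0.25 ± 0.53 in BMS754807 tumours and -0.30 ± 0.53 in hydroxychloroquine tumours. Without control tumour 4 they were 0.033, 0.66 and 0.11 in the same order.

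**Figure D4:**
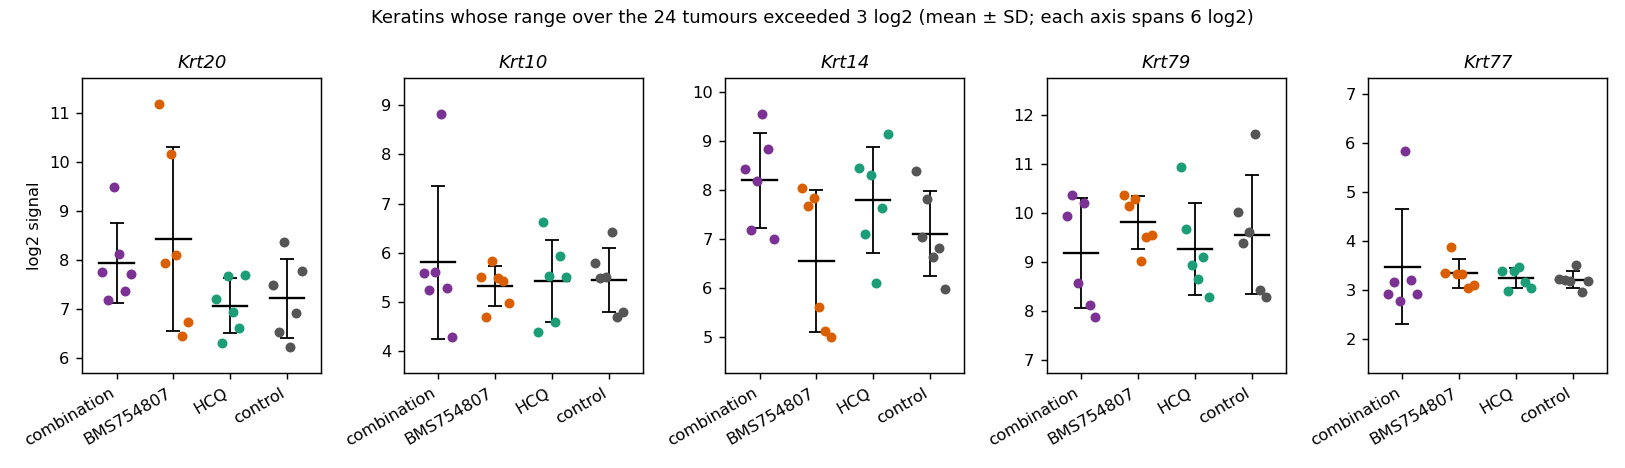
Log2 signal in single tumours of the 5 keratins whose range exceeded 3 log2, for the combination, BMS754807, hydroxychloroquine (HCQ) and control groups (6 tumours each; bars are means, whiskers SD, each panel spans 6 log2). Krt10 and Krt77 owe their range to combination tumour 4 (8.82 and 5.85), Krt20 is highest in a pair of BMS754807 tumours (11.17 and 10.15), and Krt14 and Krt79 spread in every group.

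Counted over the family at an unadjusted p under 0.05, 3 of 49 keratins differed between combination and control (1 higher and 2 lower), where 5.06% of all genes did (2.66% higher and 2.39% lower). The 3 were Krt39, a hair keratin (0.52 ± 0.22), Krt9 of palm and sole skin (-0.39 ± 0.16) and Krt88 (-0.46 ± 0.19), each with a limma adjusted p of 0.944. Of the others, Krt14 and Krt7 had the smallest p above control and Krt71 (-0.36 ± 0.18) below it. The difference was above 0 for 25 of 49 keratins, against 51.4% of all genes, and the keratin median was 0.0033, against 0.0067 over all genes.

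For BMS754807 against control, 4 of 49 keratins had an unadjusted p under 0.05 (3 higher and 1 lower), where 5.88% of all genes did (2.78% higher and 3.09% lower). They were Krt15, Krt13, Krt19 and Krt84. Krt13, the type I keratin of mucosal linings, had a lowest, median and highest of 5.79, 7.14 and 7.36 in BMS754807 tumours and 5.53, 6.375 and 6.72 in control tumours. Its difference was 0.67 ± 0.26 (unadjusted p = 0.0168, limma adjusted p = 0.831), and 4 of 6 BMS754807 tumours lay above every control. Krt84, a hair keratin, lay lower by -0.53 ± 0.24, with a control tumour at 4.58 as its highest value, and by -0.31 without control tumour 5. Among the keratins below control, Krt71 of the root sheath (-0.33 ± 0.18) and Krt4, the partner of Krt13 (-0.245 ± 0.15), had the next smallest p. The difference was above 0 for 32 of 49 keratins, against 50.1% of all genes, with a keratin median of 0.068.

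For hydroxychloroquine against control, 2 of 49 keratins had an unadjusted p under 0.05 (1 higher and 1 lower), where 4.81% of all genes did (2.43% higher and 2.38% lower). They were Krt24 and Krt8. Krt24, a type I keratin of stratified epithelia, lay higher by 0.39 ± 0.17 (unadjusted p = 0.0353, limma adjusted p = 0.979), with 6 of 6 above the control mean. Of those above control, Krt32 (0.30 ± 0.19) and Krt78 (0.19 ± 0.14) had the next smallest p, and of those below it the root sheath keratins Krt75 (-0.37 ± 0.19) and Krt27 (-0.45 ± 0.24). Without hydroxychloroquine tumour 4 the difference of Krt78 was 0.078, and without control tumour 4 that of Krt27 was -0.20. The difference was above 0 for 14 of 49 keratins, against 49.7% of all genes, with a keratin median of -0.075. Krt8, Krt18 and Krt19 were below 0 here and above 0 for BMS754807, while the differences of Krt7 lay near 0 and turned sign under quantile normalization (0.010 here and -0.00052 for BMS754807).

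**Figure D5:**
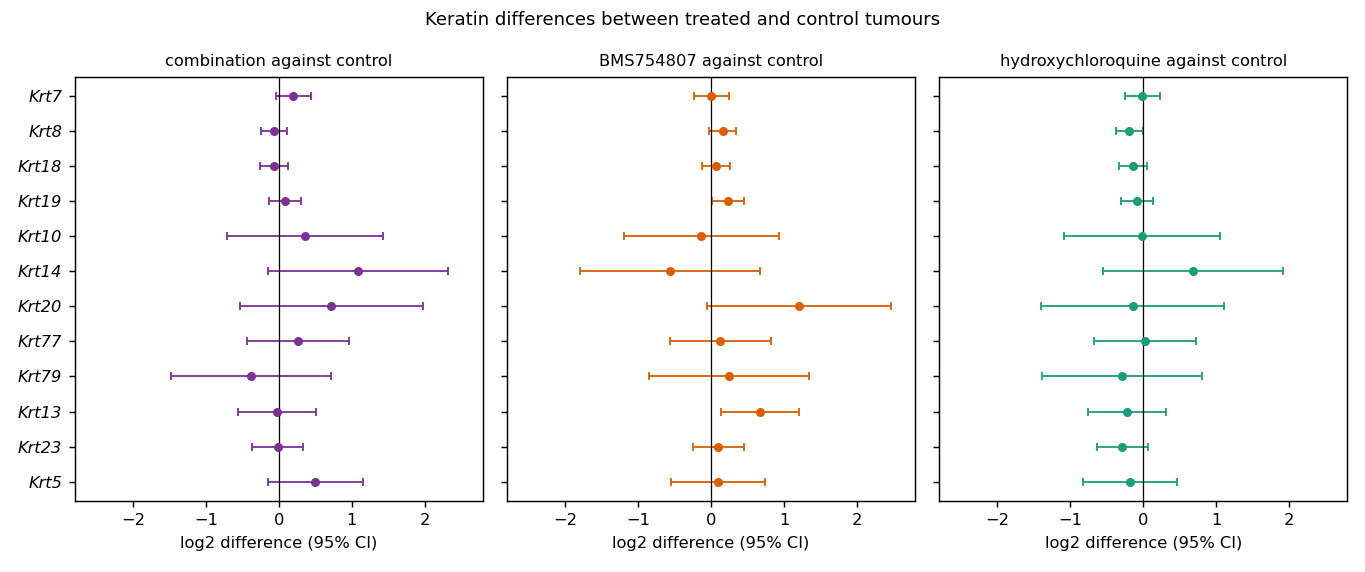
Log2 difference (points) with its 95% interval (lines) for 12 keratins in the combination, BMS754807 and hydroxychloroquine groups, each against the same 6 control tumours. The simple keratins have narrow intervals near 0, and the intervals of Krt10, Krt14, Krt20 and Krt79 span more than 2 log2.

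For the combination against BMS754807, 5 of 49 keratins had an unadjusted p under 0.05 (1 higher and 4 lower), where 8.61% of all genes did (5.13% higher and 3.48% lower). Krt14 lay higher, and Krt13 (-0.69 ± 0.26, limma adjusted p = 0.469), Krt8, Krt32 (-0.41 ± 0.19) and Krt40 (-0.42 ± 0.20) lay lower. Krt7 and Krt34 (0.21 ± 0.16) had the next smallest p of those higher. Without BMS754807 tumour 2 the difference of Krt32 was -0.26, and without combination tumour 5 that of Krt34 was 0.079. The difference was above 0 for 17 of 49 keratins, against 49.3% of all genes.

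For the combination against hydroxychloroquine, 6 of 49 keratins had an unadjusted p under 0.05 (4 higher and 2 lower), where 5.39% of all genes did (2.8% higher and 2.59% lower). Krt39 lay higher in all 6 tumours against the hydroxychloroquine mean, by 0.595 ± 0.22 (unadjusted p = 0.0118, limma adjusted p = 0.902), and Krt75 (0.41 ± 0.19), Krt5 and Krt17 (0.33 ± 0.16), a stress-induced keratin, were the other 3 higher. Krt32 (-0.43 ± 0.19) and Krt24 (-0.38 ± 0.17) lay lower, and Krt40 (-0.375 ± 0.20) had the next smallest p of those lower. Krt75 differed by 0.27 without combination tumour 5, and Krt40 by -0.25 without hydroxychloroquine tumour 4. The difference was above 0 for 33 of 49 keratins, against 51.8% of all genes.

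The interaction is the difference of the combination from hydroxychloroquine minus that of BMS754807 from control. At an unadjusted p under 0.05 it held 1 of 49 keratins (0 higher and 1 lower), where 5.05% of all genes did so (2.74% higher and 2.31% lower). This was Krt32 (-0.71 ± 0.26; unadjusted p = 0.0133, limma adjusted p = 0.951). It was above 0 for 23 of 49 keratins, against 50.8% of all genes. The interaction was 0.21 ± 0.16 for Krt7, -0.033 ± 0.12 for Krt8, 0.0033 ± 0.13 for Krt18 and -0.060 ± 0.15 for Krt19. Krt75 (0.50), Krt84 (0.60) and Krt34 (0.32) had the smallest p above 0, and Krt24 (-0.485) and Krt40 (-0.525) followed Krt32 below it. With 1 tumour left out, the interaction was 0.115 for Krt7 (BMS754807 tumour 6), 0.37 for Krt84 (control tumour 5), 0.19 for Krt34 (combination tumour 5) and -0.29 for Krt24 (BMS754807 tumour 2).

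BMS754807 against hydroxychloroquine was compared after the values had been seen, from the same fit. At an adjusted p under 0.05 it held 4 of 19505 genes (0.0205%) and 0 of 49 keratins. The 4 were Plaur, the urokinase receptor (0.605 ± 0.11, limma adjusted p = 0.0479), Tgfb3, a TGF-beta ligand (-0.80 ± 0.12, limma adjusted p = 0.0106), Timp3, an inhibitor of metalloproteinases (-0.71 ± 0.12, limma adjusted p = 0.0392), and ccdc198 (-2.12 ± 0.38, limma adjusted p = 0.0479). At an unadjusted p under 0.05 there were 10 of 49 keratins (9 higher and 1 lower), where 8.87% of all genes did so (4.34% higher and 4.53% lower). The difference was above 0 for 34 of 49 keratins, against 49.8% of all genes, and groups did not overlap for 1 of 49, Krt8, against 0.508% of all genes. No p is attached to these counts, and the keratins are related genes measured in the same tumours.

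Krt8 averaged 16.465 ± 0.14 in BMS754807 tumours and 16.115 ± 0.096 in hydroxychloroquine tumours (SD, n = 6 each), a difference of 0.35 ± 0.088 (95% interval 0.17 to 0.53; unadjusted p = 5.9e-04, limma adjusted p = 0.171). With variance trend and robust moderation its limma adjusted p was 0.0458, so the call depends on the moderation; under the other alternatives with all tumours the limma adjusted p ran from 0.0561 to 0.492. Krt13 lay higher by 0.89 ± 0.26 (unadjusted p = 0.00217, limma adjusted p = 0.253) and Krt19 by 0.31 ± 0.11 (unadjusted p = 0.00737, limma adjusted p = 0.374). The other 6 higher were Krt15 (0.60 ± 0.22), Krt39 (0.52 ± 0.22), Krt18 (0.22 ± 0.093), Krt23 (0.39 ± 0.17), Krt42 (0.34 ± 0.15) and Krt20 (1.355 ± 0.61). Without BMS754807 tumour 1 the difference of Krt20 was 0.805 and that of Krt23 was 0.26. The 1 lower was Krt14 (-1.24 ± 0.60), and Krt4 (-0.31 ± 0.15) and Krt24 (-0.28 ± 0.17) had the next smallest p below 0; without BMS754807 tumour 2 that of Krt24 was -0.47. Krt7 differed by 0.018 ± 0.12 (95% interval -0.22 to 0.26).

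Proteins that bind keratin filaments were read from a fixed list of desmosome and linker genes, 10 measured of 12. None passed the adjusted threshold in limma. At an unadjusted p under 0.05, 3 of 10 lay higher in the combination than in control, among them Dsp, desmoplakin, which ties keratins to the desmosome (0.46 ± 0.19), and Jup, plakoglobin (0.27 ± 0.12), and 8 of 10 lay above 0. In hydroxychloroquine tumours 1 of 10 did (Jup, 0.325 ± 0.12) and 9 of 10 lay above 0, and in BMS754807 tumours 0 of 10 did and 5 of 10 lay above 0. Of all genes, 2.66%, 2.43% and 2.78% lay higher at an unadjusted p under 0.05 in the combination, hydroxychloroquine and BMS754807 tumours, and 51.4%, 49.7% and 50.1% lay above 0. The median difference over the list was 0.245 for the combination, 0 for BMS754807 and 0.096 for hydroxychloroquine.

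Of the 17 measured epithelial and ductal genes that are no keratins, 15 lay above 0 for the combination, 11 for BMS754807 and 14 for hydroxychloroquine, with medians of 0.23, 0.088 and 0.17, and none passed the adjusted threshold in limma. At an unadjusted p under 0.05 there were 3, 2 and 2 of 17, where 5.06%, 5.88% and 4.81% of all genes passed and 51.4%, 50.1% and 49.7% lay above 0. Cldn3 lay higher in the combination than in control by 1.22 ± 0.50, and Ovol1, a transcription factor that restrains mesenchymal genes in epithelia, lay lower by -0.42 ± 0.14 in the combination and -0.465 ± 0.14 in hydroxychloroquine tumours. Other intermediate filament genes, 10 of 10 measured, had 0, 1 and 0 at an unadjusted p under 0.05 in the same order of groups, the 1 being Lmna, a nuclear lamin (0.23 ± 0.11). Vim, the filament protein of mesenchymal cells, had r = 0.233 with Krt8 over the 24 tumours.

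The skin markers are read against the same shares of all genes (51.4%, 50.1% and 49.7% above 0, and 5.06%, 5.88% and 4.81% at an unadjusted p under 0.05). Of 19 epidermis markers, 9 lay above 0 for the combination, 10 for BMS754807 and 10 for hydroxychloroquine; 3, 0 and 1 had an unadjusted p under 0.05 and 0 an adjusted one (limma). In the combination these included Ivl, involucrin (-0.76 ± 0.22), and Flg2 (0.515 ± 0.20). The highest Flg2 value, 4.32, was that of combination tumour 4. Flg2 was between 2.85 and 3.73 in the other combination tumours and between 2.52 and 3.42 in control tumours. Those values lay under the 95th percentile of the olfactory receptor genes. Of 16 hair follicle markers 6, 7 and 7 lay above 0, with 1, 2 and 2 at an unadjusted p under 0.05, and the keratin-associated protein Krtap9-3 lay lower by -0.49 ± 0.15 in the combination and -0.42 ± 0.15 in BMS754807 tumours. Of 7 sebaceous markers 4, 5 and 2 lay above 0, with 0 at an unadjusted p under 0.05.

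The tumours differed in the other tissue they held. The mean deviation of 14 skeletal muscle genes ran from -2.13 to 5.16 in combination tumours, -1.93 to 4.35 in BMS754807 tumours, -2.12 to 6.44 in hydroxychloroquine tumours and -2.195 to 4.03 in control tumours. Acta1, the actin of skeletal muscle, had r = 0.196 with Krt14. Macrophage genes lay lower in the combination than in control for 8 of 8 measured, with 3 at an unadjusted p under 0.05, among them Cx3cr1 (-0.84 ± 0.26), and the 7 interferon genes lay below 0 for 7 of 7 in the combination and 7 of 7 in hydroxychloroquine tumours. Of all genes, 2.39% lay lower in the combination at an unadjusted p under 0.05, and 51.4% lay above 0 in the combination and 49.7% in hydroxychloroquine tumours. Genes of such a list are not independent. The mean deviation of 9 measured pancreatic acinar genes stayed between -0.18 and 0.175 in all 24 tumours. The part of this makeup in the keratin values was not tested.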

How the data were processed

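Labelled cDNA from total RNA of 24 tumours was read on Clariom S arrays, and the values deposited by the authors were used as log2 signal, an inferred base: the lowest was 1.45, the highest 19.0, and the median of an array lay at 6.79 to 7.03. Transcriptome Analysis Console 4.0 is named in the submitters' processing notes. Background correction, normalization and the array's genome build were not given in the sources used here. Groups came from the sample titles. The platform annotation gave 1 symbol to 19572 of 22206 probe sets, several to 0 and none to 2634. Keeping the highest-mean probe set per gene dropped 67 and left 19505 genes.

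All 24 arrays entered a single linear model with group coefficients (lmFit and eBayes of limma 3.58.1, R 4.3.3, with 20 residual degrees of freedom), two-sided, with Benjamini-Hochberg adjustment over the 19505 genes and a threshold of 0.05. Intervals are 95%. Correlations over tumours used deviations from group means and 100000 permutations within groups (Python 3.11.15, numpy 2.4.6, scipy 1.17.1). Of 18 fixed pairs, 15 had both genes named. A class or list level averages, over its members, how far a tumour lies from the gene's mean. Members, classes, lists and pairs were chosen with earlier results of these data known. The text names the 4 simple keratins, keratins ranging over 3 log2, the 3 members of smallest p in each direction per comparison, the 10 genes most like 2 classes, and up to 2 members of the lists it describes. It also names genes of the fixed pairs. Any other gene named was chosen after its values were seen.

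Promoter sequences were matched by symbol to RefSeq (GRCm38.p6). The fit was tested on simulated data for BMS754807 against control (19505 genes, 10 runs). The values were drawn as normal and independent between genes, each with its own fitted SD, and the changes were given to randomly drawn genes. It found 31.0% of the 1.5-fold changes, 70.2% of the 2-fold, 93.4% of the 3-fold and 96.8% of the 4-fold ones, and 4.44% of its calls were false. These are averages over such genes. They do not hold for keratins of wide spread, such as Krt20 with an SE of 0.61 in this comparison. The number of arrays limits the precision. Same-numbered tumours of different groups had a median correlation of deviations of -0.0075 over 36 pairs (0.0042 over 180 pairs of different number). By this measure the numbers showed no pairing. A median over all genes cannot exclude a shared batch that touches few of them. Alternatives were array weights, variance trend with robust moderation, quantile normalization, averaging of probe sets, a filter on dim genes, an epithelial covariate, the compared groups alone, a replicate block and leaving out each tumour. BMS754807 against hydroxychloroquine was added after the values were seen, from the same fit and with the same alternatives.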

Additional observations from a re-analysis of the deposited data

Results flagged for a closer look

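Within each group of 6, the highest or lowest tumour was set against its nearest neighbour for 25 keratins, 100 sets in all. A gap to the nearest tumour above Dixon's critical share of the group's range was found in 10 of them. The 25 were the simple keratins, those of widest range and those of smallest p in the planned comparisons. All but the simple ones were thus picked from these same values. Dixon's chance rate of about 5% is for unselected genes, so the 10 of 100 cannot be judged against it. No such rate over all genes is given. The part of chance or of tissue makeup in the 10 gaps was not tested.

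Combination tumour 4 gave 3 of the 10. Its Krt10 was 8.82, with the next combination tumour at 5.61. Its Krt77 was 5.85 against 3.22 for the next, and its Krt5 was 4.75 against 3.05.

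The root sheath keratin Krt27 stood apart in 2 groups, at 5.75 in combination tumour 3 (next 4.90) and at 6.47 in control tumour 4 (next 5.25). BMS754807 tumour 2 stood apart for Krt77 at 3.88 (next 3.36) and for Krt24 at 4.34 (next 3.39). BMS754807 tumour 5 had Krt75 at 3.53 (next 2.85), and BMS754807 tumour 3 had Krt88 at 5.99 (next 5.17). Control tumour 2 had the low value of Krt9, 2.48, with the next at 3.03.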

How the results depend on the processing

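Genes called at the adjusted threshold stayed at 0 in each comparison under all alternatives but these: 1 gene for hydroxychloroquine against control with the replicate block, and 0 to 1 for BMS754807 against control and for the combination against BMS754807 when single tumours were left out (0 to 0 in the other planned comparisons). BMS754807 against hydroxychloroquine, added after seeing the data, had 4 genes called, 0 to 6 with single tumours left out (0 without BMS754807 tumour 3 or hydroxychloroquine tumours 3 or 4), 1 with the replicate block, with array weights and with the compared groups alone, 2 with quantile normalization, 13 with variance trend and robust moderation and 32 with genes above the median level only. Its keratins at an unadjusted p under 0.05 numbered 6 to 11 with single tumours left out and 6 with genes above the median level. Its Krt7 was -0.011 with quantile normalization and -0.041 to 0.11 with single tumours left out. Keratins at an unadjusted p under 0.05 with single tumours left out numbered 1 to 5 (combination against control), 2 to 8 (BMS754807), 0 to 4 (hydroxychloroquine), 3 to 8 (combination against BMS754807), 2 to 7 (combination against hydroxychloroquine) and 1 to 3 (interaction). With genes above the median level only, which leaves out most keratins, they numbered 0, 1, 1, 2, 0 and 0 in that order. For the combination against BMS754807 there were 3 with the replicate block, and for the interaction 2 with the replicate block, with quantile normalization and with the epithelial covariate. The numbers showed no pairing in the correlation of deviations, and the block changed no other count by over 1.5 times.

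Some differences changed sign. Krt7 in BMS754807 tumours against control was -0.00052 with quantile normalization and -0.029 with the epithelial covariate, and in hydroxychloroquine tumours 0.010 with quantile normalization. Hydroxychloroquine against control was 0.079 for Krt10 and -0.030 for Krt77 with array weights, and -0.0051 for Krt77 with the covariate. Krt20 in the combination against control, 0.72 in the fit reported, was -0.027 with the covariate. The interaction of Krt18 was -0.033 with array weights and -0.015 with quantile normalization.

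The correlation of Krt8 with Krt18 was 0.565 with quantile normalization, past its adjusted threshold no longer (permutation, adjusted p = 0.0794). Pairs near 0 turned: Krt5 with Krt15 was -0.159 by rho and -0.245 without the 2 farthest tumours, Krt4 with Krt13 -0.026 without them, Krt18 with Epcam 0.017 by rho and 0.055 with quantile normalization, and Krt19 with Epcam 0.089 without them. The cause of these changes was not tested.

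With single tumours left out, differences from control that changed sign ran, for the combination, from -0.249 to 0.66 (Krt10), -0.21 to 0.40 (Krt77) and -0.63 to 0.033 (Krt79). For BMS754807 they ran from -0.28 to 0.063 (Krt10), -0.036 to 0.098 (Krt7) and -0.0050 to 0.66 (Krt79). For hydroxychloroquine they ran from -0.257 to 0.19 (Krt10), -0.345 to 0.081 (Krt20), -0.076 to 0.044 (Krt7), -0.027 to 0.085 (Krt77) and -0.63 to 0.11 (Krt79), and the interaction from -0.040 to 0.044 (Krt18) and -0.076 to 0.0037 (Krt8). No fit of the compared groups alone exists for the interaction, which uses all 4. Class ranges under quantile normalization, an alternative chosen after seeing the data, were 0.389 (simple), 1.625 (basal) and 1.581 (suprabasal). These are not the median gene ranges given for the classes above. As deposited, class levels over the tumours ran from -0.197 to 0.246 (simple), -0.475 to 1.051 (basal) and -0.587 to 1.019 (suprabasal).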
